A study of Homo sapiens with 6 samples.

Results

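Glycolysis and the response to low oxygen were followed through 42 genes, chosen by symbol from the 57773 genes of the count table. All 42 were present in the table and all 42 passed the filter on low counts. They comprised 4 transporters of glucose and lactate, 17 glycolytic enzymes, 3 PFKFB enzymes, 5 genes of pyruvate dehydrogenase and its kinases, 12 other hypoxia-inducible genes, and HIF1A. RNA came from A549, an established human lung adenocarcinoma line of alveolar epithelial type, grown in RPMI-1640 with 10% serum. One group of 3 samples received recombinant human surfactant protein D (rhSP-D), a collectin of the airspace, at 10 µg/ml for 48 h, and the other group of 3 samples received the same volume of the elution buffer as vehicle. No source used here says that the triplicates came from separate cultures, so p-values here reflect variation among 3 libraries a group, which could be technical.

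Total counts ranged from 11396193 to 26030880 per library. Vehicle replicate 1, the shallowest library, stood apart on the first principal component, at -38.2 against 3.59 to 12.3 for the others. Of 15848 genes tested 2526 changed at an adjusted p under 0.05, and 58.4% of these were higher in rhSP-D, or 30.4% when libraries were scaled by their totals alone. All 8 markers of an epithelial line had counts, with summed levels of 12100 to 12200 CPM (counts scaled to a fixed library total) in vehicle against 12300 to 12500 under rhSP-D. Their levels were very unequal: in vehicle KRT8 and KRT18 averaged 5043 and 4125 CPM, but EPCAM and KRT19 only 1.82 and 1.83 CPM. Of 10 alveolar type II markers 8 averaged under 1 CPM, among them SFTPB, SFTPC and NKX2-1, and SLC34A2 had no count; the 10 summed to 84.18 to 86.99 CPM in vehicle against 80.56 to 82.77 under rhSP-D. The epithelial and type II sums thus did not overlap between groups in CPM. As a share of counts the epithelial sums did overlap, at 1.22 to 1.23% in vehicle against 1.21 to 1.23% under rhSP-D. Most of the type II sum was ABCA3, at 79.87 CPM in vehicle against 75.59 CPM under rhSP-D, which did not pass (edgeR adjusted p = 0.144). The part of these sums in the results was not tested. Markers of other cell types were scarce: 7 leukocyte markers summed to 4.04 to 5.80 CPM, 7 fibroblast markers to 10.87 to 15.02 CPM and 4 endothelial markers to at most 0.273 CPM in any library.

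Glycolysis converts glucose to pyruvate, with an early phase that spends ATP and a later phase that returns it, and lactate dehydrogenase regenerates the NAD that keeps the pathway running. Many cancer cells keep a high flux to lactate even with oxygen present. When oxygen falls, the transcription factor subunit HIF-1 alpha, encoded by HIF1A, escapes hydroxylation by the EGLN enzymes and the degradation that follows through VHL. HIF-1 alpha then pairs with ARNT, recruits the coactivators EP300 and CREBBP, and binds a core motif, ACGTG or GCGTG. Its known targets include many glycolytic genes, the growth factor VEGFA, the pH regulator CA9 and EGLN genes themselves. HIF-1 alpha is controlled mainly as a protein, and protein was not analysed here.

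Of the 42 genes 11 rose and 3 fell in rhSP-D, and 28 did not pass the test. Among all genes tested 15.9% passed, 9.31% higher and 6.63% lower. The 3 values of a group lay wholly above or below those of the other group for 17 of the 42, beside 31.5% of all genes tested. Of genes of at least 100 CPM this held for 12 of 18 members and 1247 of 1901 genes tested, and under 100 CPM for 5 of 24 members and 3752 of 13947 genes, so the members' share was close to or below that of genes of like level. Of the 17 glycolytic enzymes 8 rose and none fell, whereas of the 12 other hypoxia-inducible genes 1 rose, ADM, and 2 fell, EGLN1 and EGLN3. HIF1A itself fell by 11.8%. The median log2 change, rhSP-D over vehicle, was 0.04 for the glycolytic enzymes and -0.03 for the other hypoxia-inducible genes, against -0.006 for all genes tested. With scaling by library totals alone the medians of these groups were -0.000575 and -0.0724. With trends on gene length and GC content removed they were close to each other, at 0.0479 and 0.0452, against 0.0094 for all genes tested. The plot of changes with intervals shows the 8 enzymes that rose at log2 changes of 0.08 to 0.16. Only enzymes that passed are counted in this range, so the threshold bears on its lower end. With length and GC trends removed the same 8 ran from 0.04 (TPI1) to 0.18 (LDHA).

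**Figure D1:**
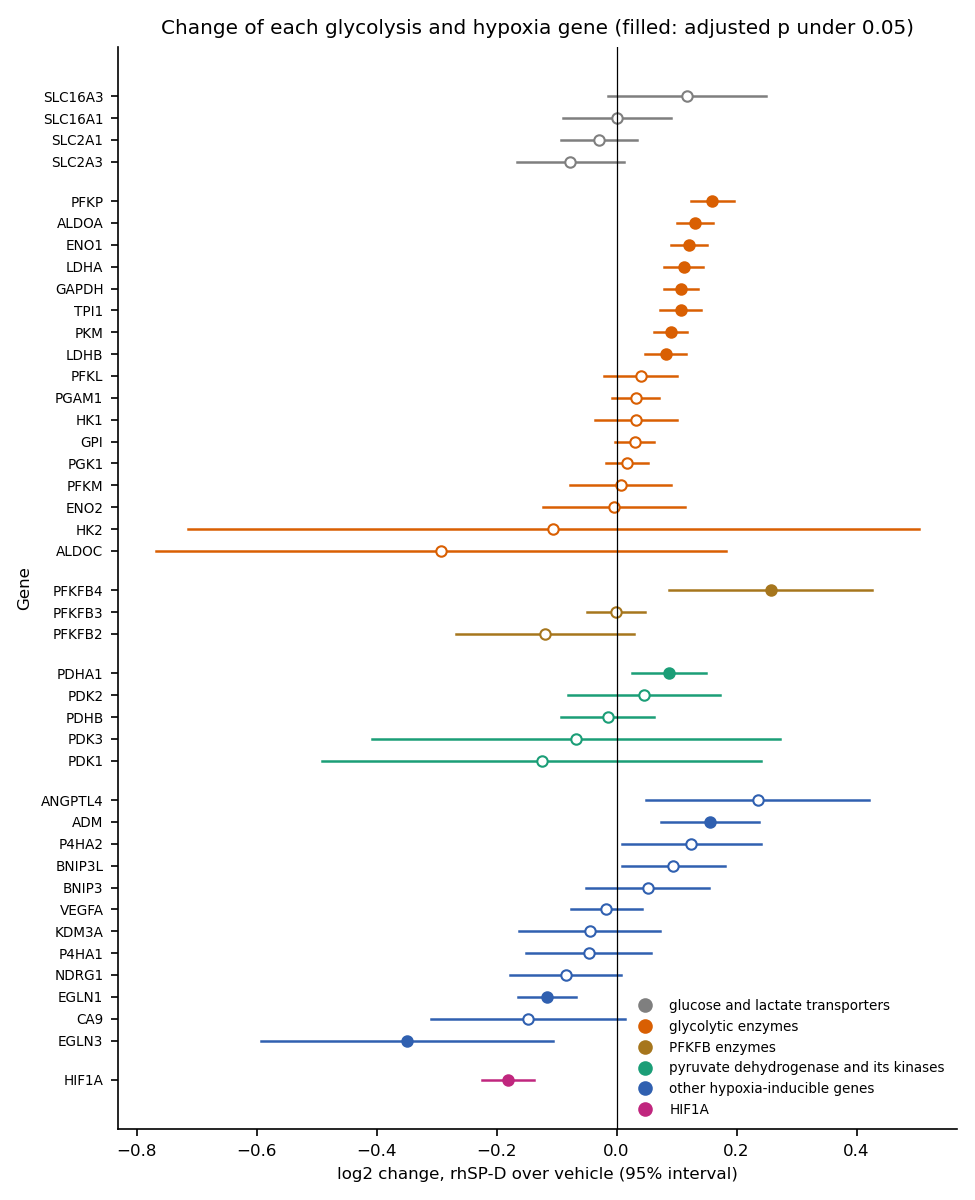
Log2 change of each of the 42 genes in rhSP-D over vehicle (x axis), with its 95% interval, grouped by role and ordered by change (y axis); filled points passed at an adjusted p under 0.05. The 8 filled glycolytic enzymes lie between 0.08 and 0.16, and HIF1A lies at -0.18.

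The glycolytic enzymes made up 2.25 to 2.27% of counts in vehicle against 2.34 to 2.36% under rhSP-D, so the groups did not overlap. Per exonic length, in TPM (counts per exonic base scaled to a fixed total), their sum was 16450 to 16570 against 16710 to 16870 TPM, also apart. Summed over the 17 genes the level was 22290 ± 215 CPM in vehicle against 23860 ± 133 CPM under rhSP-D (SD, n = 3), which is 7.07% higher. The 12 other hypoxia-inducible genes summed to 736.9 ± 5.56 CPM against 725.7 ± 3.14 CPM under rhSP-D (SD, n = 3), a change of -1.52%. Their groups did not overlap either, at 732.3 to 743.1 CPM in vehicle against 723.4 to 729.3 CPM under rhSP-D. The same held for the share of counts (0.0739 to 0.0754% against 0.0712 to 0.0717%) and for TPM (403.0 to 410.0 against 385.3 to 387.8). In RNA of whole cultures a change in some cells and a change of the same mean in every cell cannot be told apart.

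The enzymes that rose were among those with the most counts. All 8 lay above a mean of 100 CPM, a level that 12 of the 17 enzymes reached, and all 12 of these had a positive log2 change, with a median of 0.10; with library totals alone GPI, PFKL, PGK1 and PGAM1, none of them called, turned slightly negative. Genes of at least 100 CPM were called more often in general: of 1901 such genes 51.4% passed, 38.9% higher and 12.5% lower, with a median log2 change of 0.05. The 8 of 12 enzymes, or 66.7%, stand beside that 38.9%. This division by level was made after the values were seen. Of the other 5 enzymes, under 100 CPM, none passed, where 5.27% of all genes under 100 CPM rose and 5.84% fell. Of the 12 other hypoxia-inducible genes 10 lay under 100 CPM, of which 1 rose and 1 fell, and 2 lay above it, of which EGLN1 fell and VEGFA did not pass. The counts for enzymes and for other hypoxia-inducible genes thus differ in level as well as in role, and the difference between them was not tested.

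**Figure D2:**
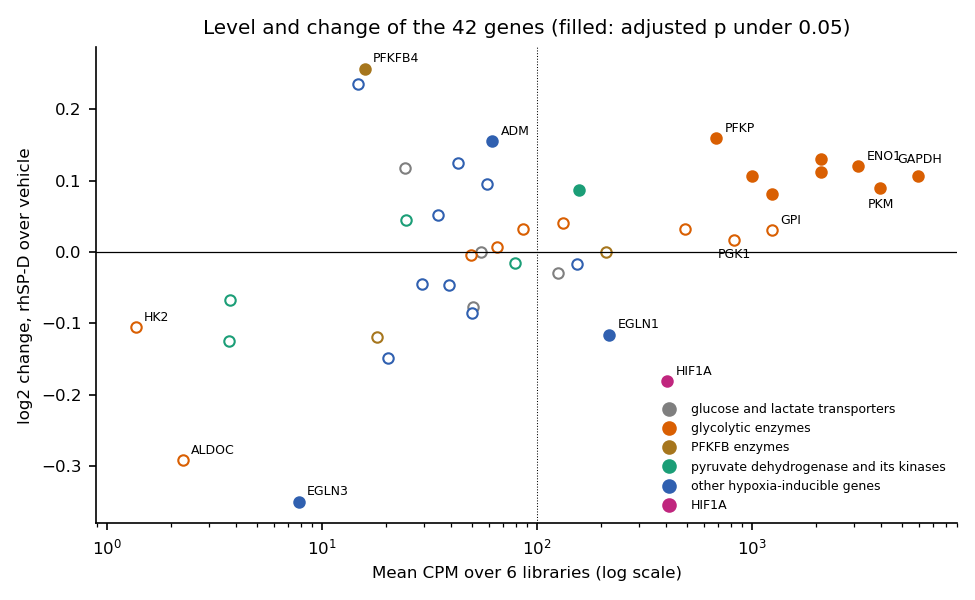
Mean CPM over the 6 libraries (x axis, log scale) against the log2 change in rhSP-D over vehicle (y axis) for the 42 genes, coloured by role, filled where the adjusted p was under 0.05. The dotted line marks 100 CPM; to its right lie 18 genes, of which 9 rose and 2 fell, HIF1A and EGLN1.

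ACGTG, one form of the core motif bound by HIF, was sought on either strand in promoter windows of RefSeq (build GRCh38.p14). Windows ran from 250 bases before to 50 bases after a gene's start. The form GCGTG was not sought, so the counts below cover ACGTG alone. A window was found for 36 of the 42 genes; the others were SLC2A3, SLC16A1, PFKFB2, VEGFA, NDRG1 and BNIP3L. Where a gene had several windows, the one nearest to its principal start in GENCODE 29 was used. The only windows of GAPDH and EGLN1 had starts 1337 and 2757 bases away from that principal start. The motif stood in 7518 of all 35116 windows (21.4%), in 2620 of 9979 genes tested here (26.3%, 1 window each), and in 19 of the 36 genes (52.8%). It stood in 3 of the 11 genes that rose, ALDOA, GAPDH and LDHA, in 1 of the 3 that fell, EGLN1, and in 15 of the 22 that did not pass. These counts depend on the use of 1 window a gene: with any window of a gene counted, they were 5 of 11, with PFKP and TPI1 added, 1 of 3 and 16 of 22, beside 3221 of 9979 genes tested (32.3%). The windows of 3 enzymes that rose and of EGLN1, which fell, are shown because they hold several, 1 or no match, a choice made after the counts were known, with the motif in capitals, 5′ to 3′ on the gene's strand.
LDHA promoter: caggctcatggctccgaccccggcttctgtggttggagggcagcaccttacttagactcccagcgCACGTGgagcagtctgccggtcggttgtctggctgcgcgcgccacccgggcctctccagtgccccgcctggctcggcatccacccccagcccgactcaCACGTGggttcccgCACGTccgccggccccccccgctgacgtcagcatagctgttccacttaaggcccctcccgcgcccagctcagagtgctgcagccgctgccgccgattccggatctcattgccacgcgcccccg
ALDOA promoter: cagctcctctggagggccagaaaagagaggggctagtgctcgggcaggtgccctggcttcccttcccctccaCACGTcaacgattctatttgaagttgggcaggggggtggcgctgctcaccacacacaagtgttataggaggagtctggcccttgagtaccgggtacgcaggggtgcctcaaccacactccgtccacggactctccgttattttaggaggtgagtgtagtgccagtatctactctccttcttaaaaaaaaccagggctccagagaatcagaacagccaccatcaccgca
ENO1 promoter: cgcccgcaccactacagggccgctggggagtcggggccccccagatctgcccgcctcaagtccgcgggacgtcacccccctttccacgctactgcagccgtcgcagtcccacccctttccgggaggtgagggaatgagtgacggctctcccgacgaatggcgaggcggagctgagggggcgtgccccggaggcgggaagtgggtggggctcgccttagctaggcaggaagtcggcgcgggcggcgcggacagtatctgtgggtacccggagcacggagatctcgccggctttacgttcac
EGLN1 promoter: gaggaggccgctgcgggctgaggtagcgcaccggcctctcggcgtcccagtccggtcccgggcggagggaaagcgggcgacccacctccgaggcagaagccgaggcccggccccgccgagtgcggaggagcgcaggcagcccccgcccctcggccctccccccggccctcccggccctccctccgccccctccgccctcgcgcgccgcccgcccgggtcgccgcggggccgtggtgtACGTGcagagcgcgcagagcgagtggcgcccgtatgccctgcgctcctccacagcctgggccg

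The LDHA window (chr11:18394313-18394612, plus strand) held 5 matches, the first at -185 and the last at -73 counted from the start base as 0. A run of CACGTG reads as the motif on both strands and counts once for each. The ALDOA window (chr16:30064029-30064328, plus strand) held 1 match, at -178. The ENO1 window (chr1:8878637-8878936, minus strand) held none, though it includes GCGTG, which was not sought. LDHA, ALDOA and ENO1 rose by 8.06%, 9.48% and 8.73%. The EGLN1 window (chr1:231422238-231422537, minus strand) held 1 match, at -13. A match describes these letters only, and binding of HIF was not analysed here.

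Glucose enters through facilitative transporters, and none of the transporters passed. SLC2A1, which encodes the widespread glucose transporter GLUT1, was at 132, 126 and 123 CPM in vehicle against 123, 127 and 122 CPM under rhSP-D. The groups overlapped, and the interval of the change ran from -6.19% to 2.38%. SLC2A3, the high-affinity transporter GLUT3, was at 52.2, 54.0 and 50.4 CPM against 50.4, 48.4 and 49.2 CPM, a log2 change of -0.08 ± 0.04 (SE, edgeR adjusted p = 0.257).

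Lactate leaves through monocarboxylate transporters. SLC16A1, which encodes MCT1, had a change with an interval from -6.04% to 6.49%, and SLC16A3, which encodes the export carrier MCT4, had one from -1.03% to 18.8%. BSG, the chaperone that brings both carriers to the cell surface and no part of the 42, rose by 11.8%, from 1307, 1298 and 1282 CPM in vehicle to 1457, 1456 and 1430 CPM in rhSP-D (log2 change 0.16 ± 0.02 SE, edgeR adjusted p = 1.69e-08). Its rhSP-D values all lay above the vehicle values.

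Hexokinase traps glucose in the cell, and phosphofructokinase catalyses the first committed step. HK1, the constitutive hexokinase on the mitochondrial surface, was at 84.9 to 86.1 CPM in vehicle against 85.6 to 88.4 CPM in rhSP-D, with an interval from -2.52% to 7.23%. HK2, the hypoxia-inducible hexokinase of many tumours, had 16, 20 and 34 counts in vehicle, against 26, 34 and 22 under rhSP-D. Its interval from -39.1% to 41.8% shows that no difference of moderate size was detectable at this depth. GPI, which makes fructose phosphate from glucose phosphate, was at 1235, 1241 and 1228 CPM against 1277, 1255 and 1249 CPM; the groups did not overlap, but the change of 2.11% did not pass (edgeR adjusted p = 0.211).

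PFKP (ENSG00000067057, chromosome 10, 3066333 to 3137712), the platelet-type phosphofructokinase, had a log2 change of 0.16, above those of the other 7 enzymes that rose; with length and GC trends removed it was 0.13, below that of LDHA at 0.18. It was at 647, 648 and 648 CPM in vehicle against 717, 737 and 718 CPM under rhSP-D. All rhSP-D values lay above the vehicle values, and the rise was 11.7% (log2 change 0.16 ± 0.02 SE, edgeR adjusted p = 1.49e-07). The liver type PFKL was at 126, 135 and 130 CPM against 137, 134 and 134 CPM, with overlapping groups and an interval from -1.40% to 7.27%. The muscle type PFKM was at 60.3, 67.7 and 66.7 CPM against 64.9, 65.5 and 66.8 CPM, with an interval from -5.26% to 6.52%.

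Per exonic length PFKP was the main phosphofructokinase transcript in each library. Its level in TPM was 8.85 to 9.46 times that of PFKL in vehicle against 9.68 to 10.2 times under rhSP-D. Merged exons of 4836 nt for PFKP and 8926 nt for PFKL raise this ratio above that in CPM. In CPM the mean log2 ratio to PFKL was 2.31 in vehicle and 2.43 under rhSP-D. Against PFKM the mean log2 ratio in CPM was 3.32 in vehicle and 3.46 under rhSP-D. The log2 difference between groups was 0.12 against PFKL and 0.14 against PFKM, with no overlap in either. Exact permutation of 3 against 3 samples cannot give a p below 0.10, which both ratios reached (0.30 after adjustment over 12 pairs of paralogs).

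The PFKFB enzymes make and break the fructose bisphosphate that activates phosphofructokinase. PFKFB4 was at 16.3, 13.9 and 13.4 CPM in vehicle against 16.5, 17.7 and 17.3 CPM in rhSP-D, and rose by 19.5% (log2 change 0.26 ± 0.08 SE, edgeR adjusted p = 0.032). The lowest rhSP-D value and the highest vehicle value were close, and the call was lost when any library other than vehicle replicate 1 was left out, with log2 changes of 0.20 to 0.29 and adjusted p of 0.0539 to 0.183. It was also lost with the libraries scaled by totals alone (adjusted p = 0.0715), with a replicate block (adjusted p = 0.0588) or thinned to one depth (adjusted p = 0.129). PFKFB3, the inducible form with high kinase activity, was at 211 to 212 CPM in vehicle against 210 to 214 CPM under rhSP-D, and its interval ran from -3.33% to 3.36%. PFKFB2 had groups that did not overlap in CPM, with unscaled counts of 231, 327 and 376 in vehicle against 459, 318 and 335 under rhSP-D and a log2 change of -0.12 ± 0.07 (SE), yet did not pass (edgeR adjusted p = 0.303).

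Aldolase and triose phosphate isomerase, which split and interconvert the sugar phosphates, rose in their main forms. ALDOA (ENSG00000149925, chromosome 16, 30064164 to 30070457), the ubiquitous aldolase, was at 2013, 1996 and 2006 CPM in vehicle against 2219, 2171 and 2195 CPM under rhSP-D. The groups were well apart, and the rise was 9.48% (log2 change 0.13 ± 0.01 SE, edgeR adjusted p = 1.57e-07). ALDOC, the brain aldolase, had 27, 45 and 53 counts in vehicle, against 64, 42 and 26 under rhSP-D, a log2 change of -0.29 ± 0.23 (SE, edgeR adjusted p = 0.455). TPI1 was at 962, 989 and 962 CPM against 1050, 1031 and 1056 CPM and rose by 7.68%, a call that ended once length and GC trends were removed (log2 change 0.04 against 0.11, adjusted p = 0.11).

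In the energy-yielding phase GAPDH, ENO1 and PKM rose, while PGK1 and PGAM1 did not pass; differences between these genes were not tested. GAPDH, which oxidises glyceraldehyde phosphate and is widely used as a reference gene, was at 5651, 5796 and 5707 CPM in vehicle against 6244, 6070 and 6158 CPM under rhSP-D. Every rhSP-D value lay above the vehicle values, a rise of 7.68% (edgeR adjusted p = 2.08e-06). With length and GC trends removed GAPDH stood at a log2 change of 0.04, against 0.11 before (adjusted p = 0.0467), and with a replicate block as well it did not pass (adjusted p = 0.122).

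PGK1, the next enzyme and the first to return ATP, did not pass. It was at 824, 830 and 818 CPM in vehicle against 827, 831 and 843 CPM under rhSP-D, with an interval from -1.18% to 3.64%. After removal of the trends it passed, at a log2 change of 0.08 (adjusted p = 9.67e-04). PGAM1, the mutase that follows, was at 487, 488 and 476 CPM against 488, 493 and 502 CPM. The groups narrowly did not overlap (487.7 against 487.9 CPM), but the change did not pass (edgeR adjusted p = 0.296).

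ENO1 (ENSG00000074800, chromosome 1, 8861000 to 8879250), the general enolase, was at 3012, 3030 and 2952 CPM in vehicle against 3266, 3224 and 3288 CPM under rhSP-D. It rose by 8.73% with no overlap (log2 change 0.12 ± 0.01 SE, edgeR adjusted p = 5.15e-07). The neuronal enolase ENO2 was at 53.6, 47.7 and 48.1 CPM against 49.0, 53.6 and 45.3 CPM, and its interval ran from -8.17% to 8.24%. PKM, the pyruvate kinase gene, was at 3820, 3878 and 3796 CPM against 4099, 4093 and 4043 CPM and rose by 6.44% (edgeR adjusted p = 2.17e-05). Counts per gene do not separate the M1 and M2 splice forms of PKM.

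Both lactate dehydrogenase subunits rose. LDHA (ENSG00000134333, chromosome 11, 18394388 to 18408425), whose subunit favours pyruvate reduction, was at 2028, 2053 and 1995 CPM in vehicle against 2151, 2182 and 2232 CPM under rhSP-D, a rise of 8.06% (log2 change 0.11 ± 0.02 SE, edgeR adjusted p = 8.22e-06). LDHB, the heart-type subunit, was at 1205, 1238 and 1200 CPM against 1273, 1276 and 1306 CPM and rose by 5.82%. With length and GC trends removed the log2 change of LDHA was 0.18 (adjusted p = 7.55e-10). The LDHB call ended with scaling by library totals alone (log2 change 0.04, adjusted p = 0.0768). The LDHA to LDHB ratio in TPM was 0.797 to 0.808 in vehicle against 0.812 to 0.821 under rhSP-D, and the groups did not overlap (log2 difference 0.03, exact permutation p = 0.10, adjusted p = 0.30). A TPM ratio below 1 depends on merged exons of 6210 nt for LDHA and 2983 nt for LDHB. In CPM LDHA was the higher of the pair in every library.

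**Figure D3:**
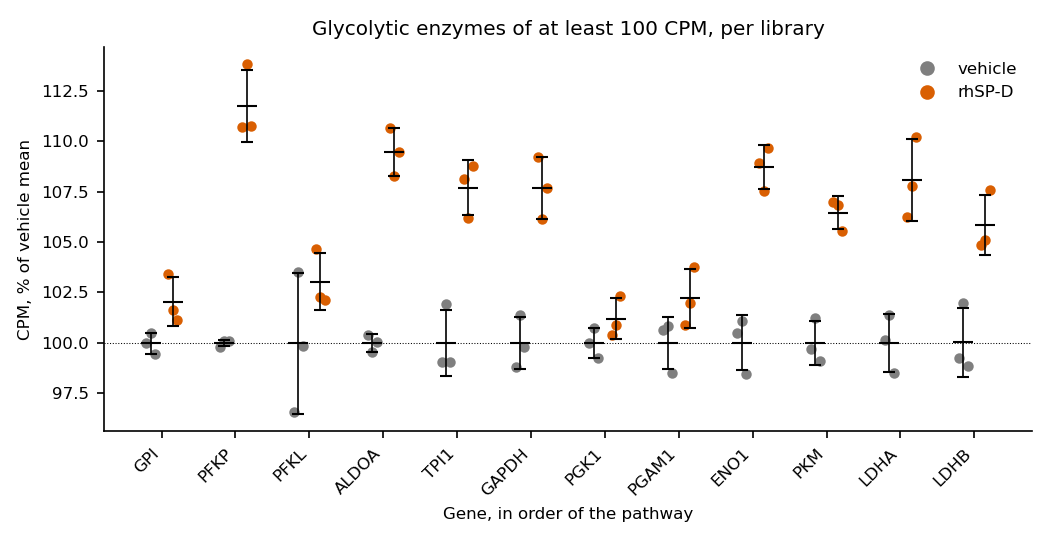
CPM of the 12 glycolytic enzymes of at least 100 CPM as a percentage of the vehicle mean (y axis, not starting at 0), per library, in pathway order (x axis); bars give the mean and SD of 3 libraries. For the 8 genes that rose, and for GPI and narrowly PGAM1, all rhSP-D points lie above all vehicle points. GPI, PFKL, PGK1 and PGAM1, with no call, differ by 3% or less on the fitted scale.

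Per exonic length GAPDH was the most abundant enzyme transcript in vehicle, at 6114 ± 47.8 TPM (SD, n = 3). ENO1 at 1811 TPM, ALDOA at 1632 TPM, PKM at 1425 TPM and LDHB at 1297 TPM followed, then TPI1 at 1146 TPM and LDHA at 1039 TPM. PGAM1, PGK1, PFKP and GPI lay between 600.2 and 368.4 TPM, and the remaining 6 enzymes were below 50 TPM. The enzymes with no call were therefore PGAM1, PGK1 and GPI together with those 6. TPM here use the merged exons of all annotated transcripts, which lowers genes with many alternative exons such as GPI and PKM. The order of genes in TPM depends on these lengths, and LDHB stands above LDHA in TPM but below it in CPM.

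Pyruvate dehydrogenase carries pyruvate into the mitochondrion's citric acid cycle, and the PDK kinases switch it off. PDHA1, the catalytic alpha subunit, was at 146, 159 and 153 CPM in vehicle against 162, 158 and 167 CPM under rhSP-D, a rise of 6.24% with overlapping groups (edgeR adjusted p = 0.0456). That call was lost without vehicle replicate 1, vehicle replicate 3, rhSP-D replicate 1 or rhSP-D replicate 3, with adjusted p of 0.119 to 0.211. It was also lost under upper-quartile factors (adjusted p = 0.0597), library totals alone (adjusted p = 0.317), a replicate block (adjusted p = 0.0506), DESeq2 (adjusted p = 0.0933), limma-voom (adjusted p = 0.0501) and thinning (adjusted p = 0.0504). With length and GC trends removed PDHA1 still passed, at a log2 change of 0.12 against 0.09 before (edgeR adjusted p = 0.00507). PDHB, the beta subunit, had an interval from -6.23% to 4.45%.

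None of the kinases passed. PDK1, the hypoxia-inducible kinase, had 50, 67 and 71 counts in vehicle, against 93, 76 and 55 under rhSP-D, with an interval from -28.9% to 18.2%. PDK2 was at 24.2 ± 1.07 CPM in vehicle and 24.98 ± 0.87 CPM under rhSP-D (SD, n = 3), and PDK3 had 43 to 104 counts per library. PDK4, which was not among the 42, was the most abundant kinase transcript per exonic length, at 123 ± 3.55 TPM in vehicle and 112 ± 2.75 TPM in rhSP-D, and also did not pass (edgeR adjusted p = 0.158). PDK2 was at 14.1 TPM in vehicle.

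HIF1A (ENSG00000100644, chromosome 14, 61695513 to 61748259) fell, and did so under each of 18 alternative settings. It was at 429, 419 and 444 CPM in vehicle against 379, 382 and 380 CPM under rhSP-D, so that each rhSP-D value lay below each vehicle value. It fell by 11.8% (log2 change -0.18 ± 0.02 SE, edgeR adjusted p = 4.04e-07), with an interval from -14.4% to -9.10%. Over those settings the log2 change ran from -0.22 to -0.12, and with length and GC trends removed it was -0.12 (adjusted p = 9.64e-05). The antisense gene HIF1A-AS1, which overlaps 117 nt of its exons, had 2 to 7 counts per library, against 4960 to 9709 for HIF1A. EPAS1, which encodes the related subunit HIF-2 alpha, was at 378, 362 and 388 CPM against 379, 392 and 378 CPM and did not pass (edgeR adjusted p = 0.543).

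The EGLN prolyl hydroxylases mark HIF alpha subunits for degradation and are themselves induced by low oxygen. EGLN1 (ENSG00000135766, chromosome 1, 231363751 to 231425044), the main oxygen sensor in most cells, was at 227, 222 and 229 CPM in vehicle against 210, 209 and 206 CPM under rhSP-D. The groups did not overlap, and EGLN1 fell by 7.72% (log2 change -0.12 ± 0.02 SE, edgeR adjusted p = 8.19e-04). Removal of length and GC trends ended that call (log2 change -0.04, adjusted p = 0.332). EGLN3 had 85, 180 and 176 counts in vehicle, against 187, 119 and 137 under rhSP-D, or 7.36, 10.0 and 8.75 CPM against 7.30, 6.49 and 6.88 CPM.

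EGLN3 fell by 21.6% (log2 change -0.35 ± 0.12 SE, edgeR adjusted p = 0.0424), with its lowest vehicle value just above its highest rhSP-D value. The call was lost when any library other than vehicle replicate 1 was left out, with log2 changes of -0.40 to -0.24 and adjusted p of 0.067 to 0.282. It was also lost with a replicate block (adjusted p = 0.0681), with the trends removed (adjusted p = 0.0931) and with thinned libraries (adjusted p = 0.234). EGLN2, from the list of further pathway genes, did not pass (edgeR adjusted p = 0.436).

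Of the secreted hypoxia-inducible products ADM passed. ADM, the gene of the vasodilator peptide adrenomedullin, was at 57.3, 59.7 and 59.3 CPM in vehicle against 66.3, 67.0 and 63.4 CPM in rhSP-D, and rose by 11.4% with no overlap (log2 change 0.16 ± 0.04 SE, edgeR adjusted p = 0.0064). The call ended with length and GC trends removed (log2 change 0.09, adjusted p = 0.187) and with thinned libraries (adjusted p = 0.0661). VEGFA, the angiogenic growth factor, was at 161, 151 and 154 CPM against 150, 157 and 152 CPM, with an interval from -5.19% to 2.93%. ANGPTL4, a lipase inhibitor, was at 13.3, 11.7 and 15.5 CPM against 16.4, 15.2 and 16.2 CPM and did not pass (log2 change 0.24 ± 0.09 SE, edgeR adjusted p = 0.0781), except without vehicle replicate 3 (log2 change 0.37, adjusted p = 0.0142).

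The remaining hypoxia-inducible genes act inside the cell or at its surface, and none passed. CA9, the tumour-associated carbonic anhydrase, was at 23.6, 22.1 and 18.7 CPM in vehicle against 19.2, 17.9 and 20.3 CPM in rhSP-D (log2 change -0.15 ± 0.08 SE, edgeR adjusted p = 0.225). It was lower at an adjusted p of 0.0474 without vehicle replicate 3 (log2 change -0.25), and at 0.0349 with length and GC trends removed (log2 change -0.25). NDRG1, a stress-induced gene, had an interval from -11.6% to 0.514%, and KDM3A, a histone demethylase, one from -10.6% to 5.12%.

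BNIP3 and BNIP3L, receptors that direct mitochondria to autophagy, had intervals from -3.42% to 11.3% and from 0.671% to 13.3%. BNIP3L was at 53.5, 56.7 and 59.1 CPM against 61.0, 60.2 and 60.5 CPM, without overlap but with an adjusted p of 0.128 in edgeR. P4HA1 and P4HA2, catalytic subunits of the collagen prolyl hydroxylase, had log2 changes of -0.05 ± 0.05 and 0.12 ± 0.06 (SE), with overlapping groups. BNIP3L and P4HA2 passed once the trends were removed, at log2 changes of 0.15 (adjusted p = 0.0135) and 0.18 (adjusted p = 0.0292).

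**Figure D4:**
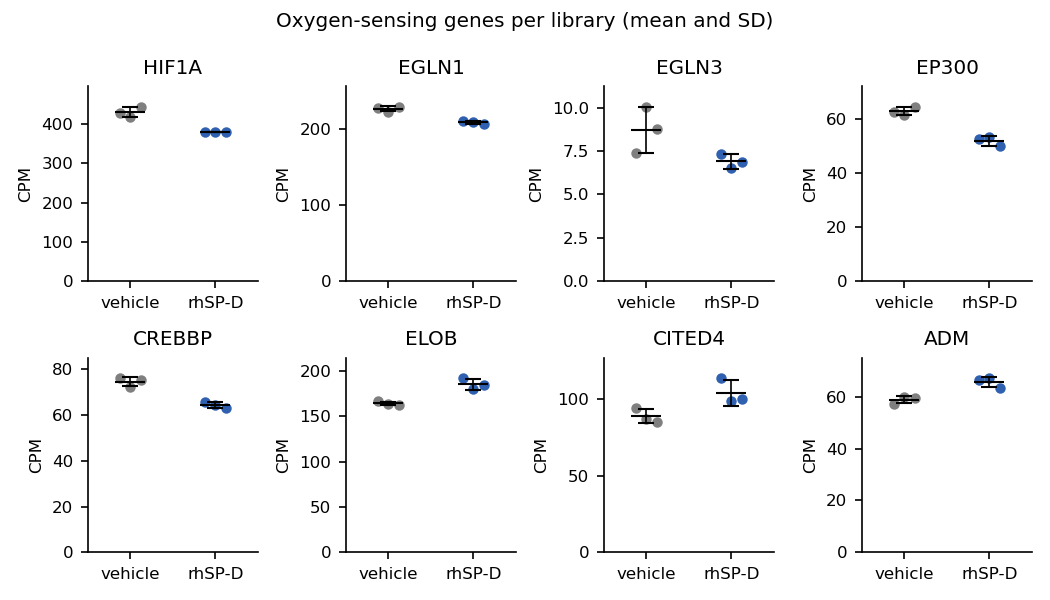
CPM per library (y axis, from 0) of 8 genes of oxygen sensing and response in the vehicle and rhSP-D groups (x axis); bars give the mean and SD of 3 libraries. HIF1A, EGLN1, EGLN3, EP300 and CREBBP lie lower and ELOB, CITED4 and ADM higher in all 3 rhSP-D libraries than in all 3 vehicle libraries. Only genes that passed are shown. EPAS1, ARNT, VHL, HIF1AN, EGLN2 and VEGFA did not pass and had groups that overlapped. Of the 17 regulators tested 6 did not overlap, beside 31.5% of all genes tested.

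Of 17 tested regulators of the HIF pathway outside the 42 genes, 3 rose and 2 fell. These shares, 17.6% and 11.8%, stand beside 9.31% and 6.63% of all genes tested and rest on few genes. EP300, the acetyltransferase that HIF recruits, was at 62.7, 61.6 and 64.5 CPM in vehicle against 52.7, 53.2 and 49.9 CPM in rhSP-D, and fell by 17.5% (log2 change -0.28 ± 0.04 SE, edgeR adjusted p = 1.74e-05). Its relative CREBBP fell by 13.4%, from 76.0, 72.2 and 75.5 CPM to 65.6, 64.3 and 63.2 CPM (log2 change -0.21 ± 0.04 SE, edgeR adjusted p = 2.05e-04). Both remained past the threshold with length and GC trends removed, at log2 changes of -0.22 and -0.17. EP300 and CREBBP serve many transcription factors besides HIF.

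Among the 3 that rose, ELOB, elongin B of the VHL ubiquitin ligase, went up by 13.2%, a call that ended with the trends removed (log2 change 0.05 against 0.18, adjusted p = 0.227). OS9, an endoplasmic reticulum lectin, rose by 7.74% (log2 change 0.11, edgeR adjusted p = 0.00174), but not with library totals alone (log2 change 0.07, adjusted p = 0.0506) or with thinned libraries (log2 change 0.07, adjusted p = 0.149). CITED4, an inhibitor of the binding between HIF and its coactivators, rose by 18.3% (edgeR adjusted p = 0.0381), but not without vehicle replicate 2 (adjusted p = 0.168), without vehicle replicate 3 (adjusted p = 0.15), with library totals alone (adjusted p = 0.062) or with thinned libraries (adjusted p = 0.0717). VHL, ARNT and HIF1AN were at log2 changes of 0.0003, -0.09 and -0.06 and did not pass.

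A list of 45 further hypoxia-inducible genes had 43 tested members, of which 9 rose and 2 fell, with a median log2 change of -0.002. The share that rose, 20.9%, stands beside 9.31% of all genes tested; among its 14 members of at least 100 CPM 7 rose, beside 38.9% of all genes at that level. HMOX1, the haem oxygenase, rose by 18.5% (189, 185 and 188 CPM against 223, 226 and 217 CPM). IGFBP1, a binding protein of insulin-like growth factors, rose by 15.8% and the cytokine MIF by 13.6%. With the trends removed the log2 change of MIF was 0.06, against 0.18 before (adjusted p = 0.0241). STC2, a secreted glycoprotein, fell by 0.18 on the log2 scale (134, 131 and 126 CPM against 116, 113 and 114 CPM, edgeR adjusted p = 5.89e-05). HMOX1 and IGFBP1 respond to many other signals. CA12, PLOD2, ERO1A and BHLHE40 did not pass, at log2 changes of -0.009, -0.002, -0.005 and 0.03; PLOD2 passed with the trends removed (log2 change 0.08, adjusted p = 0.0437).

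Further genes of glucose and pyruvate metabolism were mostly without a call. Of 32 tested genes of glucose metabolism 1 rose, BSG, and 1 fell, GPD2, the mitochondrial glycerol phosphate dehydrogenase (by 11.5%, edgeR adjusted p = 0.0273). That is 3.12% each way, beside 9.31% higher and 6.63% lower of all genes tested. The GPD2 call was lost without any single library other than rhSP-D replicate 2 (adjusted p of 0.0532 to 0.0873) and with the trends removed (adjusted p = 0.389). Of 14 tested genes of pyruvate oxidation MPC2, a subunit of the mitochondrial pyruvate carrier, rose by 8.84% (edgeR adjusted p = 0.028). PDPR, a regulator of pyruvate dehydrogenase phosphatase, fell by 14.3% (edgeR adjusted p = 0.0083). Here the share was 7.14% each way, beside the same 9.31% and 6.63%. The MPC2 call was lost without any single library other than vehicle replicate 2 (adjusted p of 0.0557 to 0.143) and with library totals alone (adjusted p = 0.152), and the PDPR call on leaving out vehicle replicate 2 (adjusted p = 0.113), rhSP-D replicate 1 (adjusted p = 0.073) and with the trends removed (adjusted p = 0.0664).

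The changes moved with gene length and GC content. Over all genes tested the median log2 change was 0.08 in the 3839 genes with the shortest exons (up to 2820 nt) and -0.07 in the 3837 with the longest (from 7150 nt). It was -0.07 in the 3837 genes of lowest GC content (up to 42.3%) and 0.06 in as many of the highest (from 56.8%). These bounds were set after the data were seen. The glycolytic enzymes had a median exonic length of 5276 nt and a GC content of 53.1%, and the other hypoxia-inducible genes 6295 nt and 50.4%, against 4671 nt and 48.9% for all genes tested. With both trends removed 9 enzymes were higher: GPI and PGK1 passed, TPI1 did not, and the median was 0.05, beside 8.28% of all genes higher and 2.80% lower. All 9 were of at least 100 CPM, and the share called among all genes of that level was not computed with the trends removed. The median of enzymes of at least 100 CPM was then 0.0826, beside 0.0482 for all genes of that level. Of the other hypoxia-inducible genes 2 were then higher, BNIP3L and P4HA2, and 1 lower, CA9, with a median of 0.0452. ADM, EGLN1 and EGLN3 no longer passed. What part the trends play in the results was not tested.

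**Figure D5:**
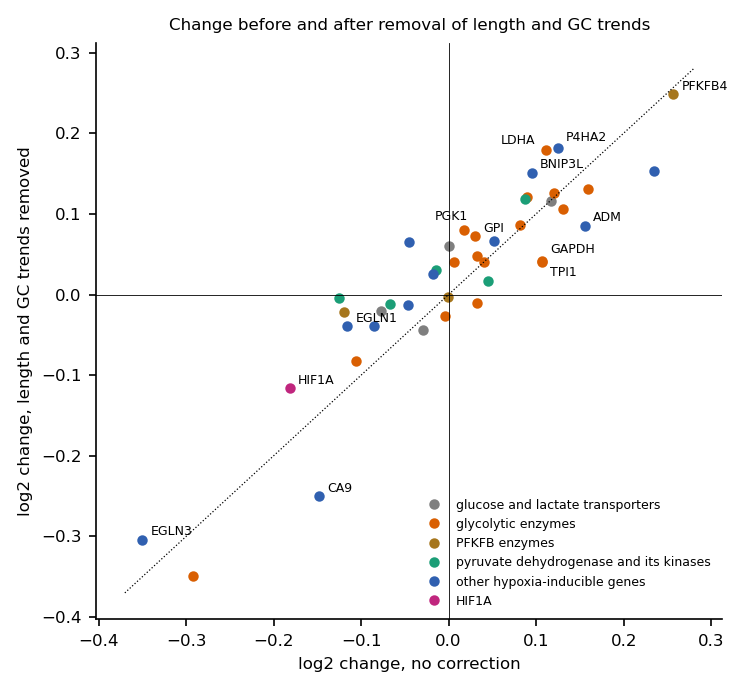
Log2 change of the 42 genes as fitted (x axis) and with trends on exonic length and GC content removed (y axis); the dotted line marks equal values. LDHA, PGK1 and GPI lie above the line, GAPDH and TPI1 below it at 0.04, and HIF1A moves from -0.18 to -0.12.

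Reads of near-identical copies and of opposite strands bear on some of these counts. The strand setting of the counting is not given in the sources used here, and 23 of the 42 genes have exons that overlap exons of the opposite strand, among them ALDOA over 520 nt, GAPDH over 422 nt, ENO1 over 126 nt, TPI1 over 14 nt and PDHA1 over 956 nt. If strand was not counted, reads there cannot be told apart. Glycolytic genes have many processed pseudogenes: 107 rows of the table carry a symbol of one of 15 member genes followed by P and a number. Together these rows held 761 counts, or 0.031% of the 2458215 counts of their 15 parent genes. The most counted were LDHAP4 with 103 counts in all, TPI1P1 with 100 and GAPDHP1 with 79, and none of the 4 that could be tested passed.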

How the data were processed

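Poly(A) RNA of 6 A549 samples was sequenced as read pairs from NEBNext Ultra libraries. The tools named in the submitters' processing notes, with no roles given, are cutadapt, STAR 2.7.0a and featureCounts 2.0.0, with build GRCh38. Annotation release, strandedness and handling of multi-mapping reads were not given in the sources used here. Values deposited by the authors are raw whole-number counts per Ensembl gene.

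Samples were grouped by title. edgeR 4.0.16 in R 4.3.3 was fitted to all genes: filterByExpr (minimum count 10, total 15), TMM factors, robust quasi-likelihood test, 2-sided, p-values being adjusted by Benjamini-Hochberg over the 15848 genes. A gene rose or fell at an adjusted p under 0.05. CPM are scaled by TMM library size, intervals are 95% and cover the fitted spread only, and the biological coefficient of variation was 2.51%. Chi-square per degree of freedom between libraries was 1.92 to 2.15 within groups, so no pair agreed within sampling noise. Log2 ratios of 12 paralog pairs were compared by exact permutation. Lengths, positions and GC content come from GENCODE 29, which need not be the authors' annotation. The length and GC correction used splines with 5 degrees of freedom as offsets, for 96.8% of genes tested. The fit was tested on simulated data; where dispersion varied from gene to gene, the share of false calls was clearly above the nominal rate, so calls near the threshold, PFKFB4, PDHA1 and EGLN3 among them, are less certain than their adjusted p states.

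The 42 genes and the lists of further genes and markers were chosen with earlier results of these data known. Named were the 42 genes, up to 5 genes per further list by smallest p among those that passed, and pseudogenes by count, except 1 gene that is not reported here; genes without a call from these lists, PDK4, EPAS1 and the 2 pseudogenes of the closing section had their values seen before they were named. Alternatives comprised other normalizations (DESeq2 size factors, upper-quartile factors, library totals alone), no filter, a filter of 1 CPM in 3 samples, blocking on replicate number, omission of single libraries, DESeq2 1.42.0, limma-voom (limma 3.58.1), the length and GC correction, thinning to 11396193 counts, and an adjusted p under 0.01.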

Additional observations from a re-analysis of the deposited data

How the results depend on the processing

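Of the glycolytic enzymes 8 rose under the main settings and under 16 alternatives, 7 with library totals alone and 9 with the length and GC correction, and none fell in any. The 8 were not always the same genes. With the length and GC correction and the replicate block together, TPI1 and GAPDH lost the call and GPI and PGK1 gained it. Members with no call changed sign in up to 7 cases per setting, most with library totals alone. PFKP, ALDOA, ENO1, PKM, LDHA and HIF1A kept direction and call under all 18 alternatives. Same-numbered libraries did not deviate together (correlations -0.0795, -0.0676 and 0.0268), so the numbers are not taken to pair them. The replicate block gave 2319 calls over all genes, ended the calls of PFKFB4, PDHA1 and EGLN3, and left 1 other hypoxia-inducible gene lower.

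Calls over all genes numbered 2526, and 1678 to 2182 with 1 library left out, 1678 of them without rhSP-D replicate 1, the deepest; they numbered 1534 by DESeq2, 1503 with the length and GC correction and the replicate block together, 1486 when thinned and 1465 at an adjusted p under 0.01. The enzyme median of 0.04 was -0.000575 with library totals alone, 0.0506 with the correction and block, 0.0838 when thinned, and 0.0414 to 0.0731 with 1 library left out, highest without vehicle replicate 3. Other hypoxia-inducible genes higher numbered 1, but 2 with the correction, 2 with correction and block, 0 when thinned, and 1 to 2 with 1 library left out, 2 without vehicle replicate 3. Those lower numbered 2, but 1 by DESeq2 (which gave EGLN3 no adjusted p), with the correction, when thinned and at 0.01, 0 with correction and block, and 1 to 2 with 1 library left out, 1 without vehicle replicate 2 or any of the rhSP-D libraries. Their median of -0.03 was -0.0724 with library totals alone, 0.0452 with the correction, 0.0451 with correction and block, and -0.044 to -0.000155 with 1 library left out, nearest to 0 without rhSP-D replicate 1 and -0.00963 without vehicle replicate 1. Of the 12 paralog pairs 4 had ratios that did not overlap between groups, beside 31.5% of all genes tested for the CPM of a gene. The share among ratios of other gene pairs was not computed. With 1 library left out 4 to 8 pairs did not overlap (8 without vehicle replicate 1, 7 without rhSP-D replicate 2), where fewer samples make that easier. The cause of the other shifts was not tested. Depth limits HK2, ALDOC, PDK1, PDK3 and EGLN3, which had 16 to 187 counts per library.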

Other observations

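Of the pseudogene rows, ENO1P1 had 58 counts in rhSP-D replicate 1 and 0 in each of the other 5 libraries. EGLN1P1 had 11 counts in the same library, 6 and 3 in vehicle replicates 1 and 3, and 0 in the others. Neither was tested, since both failed the filter on low counts.

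Brain aldolase ALDOC was low in rhSP-D replicate 3, at 1.30 CPM against 2.50 and 2.29 CPM in the other rhSP-D libraries and 2.34 to 2.63 CPM in vehicle. The ratio of ALDOA to ALDOC in TPM was accordingly 1260 in that library and 664 and 709 in the other rhSP-D libraries, against 569 to 644 in vehicle.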
